A study of Arabidopsis thaliana with 22 samples.

Results

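Transcript levels in *pab2 pab8* seedlings were compared with those in wild-type (WT) seedlings of *Arabidopsis thaliana*, in total RNA. Every total RNA array of the series was used, 3 of *pab2 pab8* and 3 of WT (biological replicates 1 to 3 of each), which are 6 of 22 arrays. The 16 others hold polysomal (PL) and non-polysomal (NP) RNA from sucrose gradients of the same 2 genotypes, 4 replicates of each. The *pab2 pab8* line is a double mutant with 1 T-DNA allele per gene, SALK_026293 in *PAB2* and SALK_022160 in *PAB8*, and it keeps the related gene *PAB4*, whereas WT carries neither allele. Both genotypes were of the Columbia-0 ecotype and were grown side by side for 10 to 12 days in continuous light at 22°C on agar with 1% sucrose, replicates at different times, and RNA was taken from the aerial parts. The mutant is slightly dwarfed.

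Poly(A) binding proteins coat the poly(A) tail of an mRNA and contact the cap-binding complex at the other end through eIF4G, which favours initiation and ribosome recycling. They also shield the tail from deadenylases, whose action starts the decay of most mRNAs. In *Arabidopsis*, *PAB2*, *PAB4* and *PAB8* are the members expressed broadly in vegetative tissue.

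The ATH1 array holds 22746 *Arabidopsis* probe sets, and the deposited value of each is a log2 signal that the authors normalized by RMA, the Robust Multi-array Average. Array medians were 6.12 to 6.23 in total RNA and 4.68 to 4.99 in PL and NP RNA, so signals were compared within one kind of RNA only, and only changes were set side by side. The 6 total RNA arrays correlated with each other at r = 0.987 to 0.996 across probe sets. *RCA*, the Rubisco activase gene of leaf mesophyll, had log2 signals of 14.24 to 14.37 on all 6 arrays, and the 3 root markers measured, the 1 flower marker and the 2 seed coat markers were each below 0 in change and none passed the false discovery rate (FDR) in limma, with 3 of these 6 at an unadjusted p under 0.05. In whole tissue, fewer cells that contain an mRNA and less of it per cell cannot be told apart.

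Many transcripts differed a little between the genotypes and few differed much. At an FDR below 0.05 in limma, 555 of 22746 probe sets were higher in *pab2 pab8* (2.44%) and 330 were lower (1.45%). With a change of at least 2-fold as well, which is the criterion for a call here, 99 were higher (0.435%) and 23 lower (0.101%). Hence 763 of the 885 changed probe sets (86.2%) changed by less than 2-fold. The balance between the directions turned with the size of the change, with 175 higher and 205 lower below a log2 change of 0.585 (1.5-fold), 281 higher and 102 lower from there to 1, 85 higher and 21 lower between 1 and 2, and 14 higher and 2 lower above 2. It also turned with the signal. With probe sets split into 5 equal bins by mean signal, 9 were higher and 1 lower in the dimmest bin, 202 and 60 in the middle bin and 89 and 136 in the brightest bin. Centring the arrays on their medians, which moved the median change of all probe sets to -0.09 (-0.03 as deposited), gave 487 higher and 613 lower at the FDR, so the ratio of higher to lower small changes depended on the scaling.

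**Figure D1:**
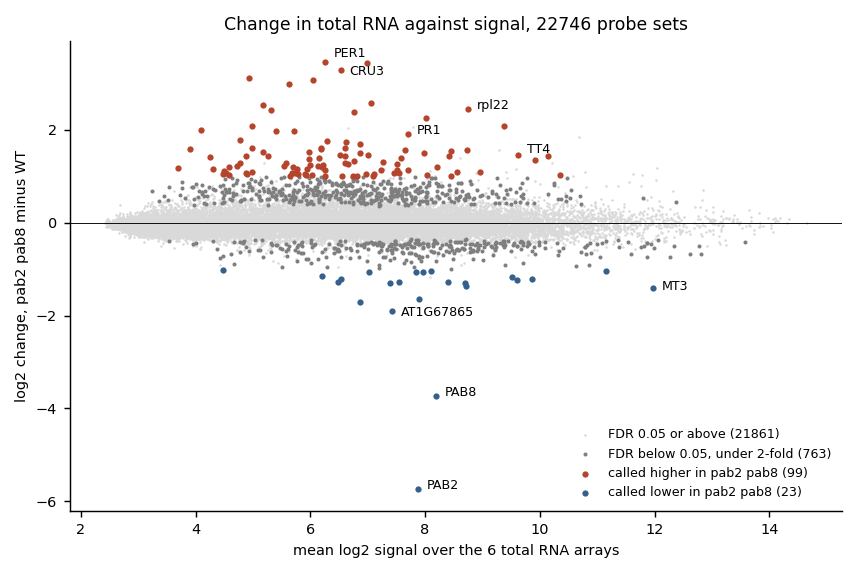
The log2 change in total RNA (*pab2 pab8* minus WT, vertical axis) is plotted against the mean log2 signal over the 6 arrays (horizontal axis) for 22746 probe sets. The 99 called higher lie mostly at middle and low signal and reach 3.46 (*PER1*), the 23 called lower reach -5.74 (*PAB2*), and the 763 that passed the FDR under 2-fold spread over all but the lowest signals.

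Every one of the 885 changed probe sets had 3 *pab2 pab8* values that did not overlap the 3 WT values, as did 6073 of all 22746. To find which calls hung on single libraries, the fit was repeated 9 times, without each replicate of both genotypes and without each array. Of the 122 called probe sets, 42 (31 higher, 11 lower) passed the FDR in all 9 fits. Replicate 2 mattered most, since 73 called probe sets missed the FDR without it and 29 of them missed it in that fit alone. Without replicate 2, the calls were 33 higher and 15 lower. In the text below, a gene is said to be kept in all 9 fits, or the fit with its highest FDR is named. Genes were named from the annotation of the array, which gives 1 gene for 13513 probe sets, and otherwise from the tables of the study, which give 500 more. Many of these 500 are in those tables because they changed on these arrays, so counts over gene lists use annotated probe sets, among which 2.16% were higher and 1.3% lower at the FDR (0.422% and 0.0962% at 2-fold), and members named through the study's tables are counted apart. Of the 122 called probe sets 45 are named through the study's tables, and single genes are not all marked below. Among those so named are *CRA1*, *CRU3*, *OLEO2*, *CYS2*, *HIK*, *CYCB1;1*, *CCA1*, *LHY*, *FLC*, *MT3*, *KCS8*, *AT5G14920*, *EXPA2*, *ELIP2*, *PAP8* and *NRT1.8*.

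**Figure D2:**
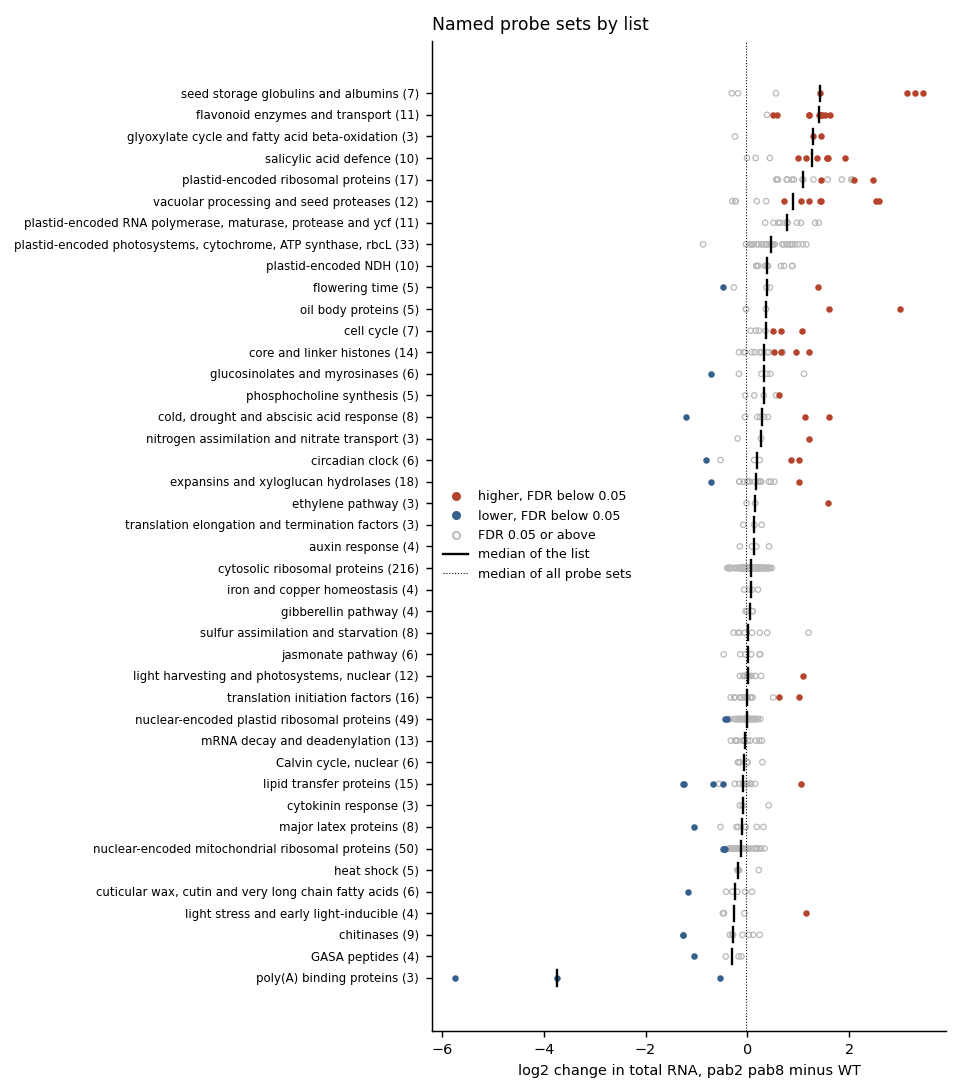
Each point is 1 named probe set, placed by its log2 change in total RNA (*pab2 pab8* minus WT), with gene lists of at least 3 measured members down the page in order of their median (bar) and the number measured in brackets. Members named through the study's tables are included. Points past the FDR upwards number 10 in the flavonoid list, 7 each in the salicylic acid and protease lists and 4 in the seed storage list, poly(A) binding proteins, GASA peptides and chitinases stand at the bottom, and the 216 cytosolic ribosomal proteins lie within 0.48 of 0.

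The disrupted genes had the largest decreases of all. *PAB2* had log2 signals of 4.95, 5.07 and 5.0 in *pab2 pab8* and of 10.70, 11.01 and 10.55 in WT, a change of -5.74 (SE 0.12, FDR = 6.5e-08), or 53.5-fold lower. *PAB8* had 6.43, 5.88 and 6.69 in *pab2 pab8*, against 9.95, 10.34 and 9.89 in WT, a change of -3.73 (SE 0.20, FDR = 0.000136), or 13.3-fold lower. Both were kept in all 9 fits. *PAB4*, the major poly(A) binding protein gene that the line retains, was lower as well, with 9.68, 9.59 and 9.64 in *pab2 pab8* and 10.07, 10.30 and 10.12 in WT. Its change of -0.53 (SE 0.09, FDR = 0.0190) is 1.44-fold, and its FDR was 0.127 without replicate 2 and below 0.05 in 3 of the 9 fits. All 3 genes are named through the study's tables, and none of them was higher in the mutant. Among the 10 genes on each side of the insertions, 4 measured near *PAB2* changed by -0.16 to 0.41 and 8 near *PAB8* by -0.15 to 0.30. None of these 12 passed the FDR in limma, and 1 had an unadjusted p under 0.05.

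The 4 largest increases (*PER1*, *CRA1*, *CRU3* and *AT2G28490*) were those of mRNAs that are made while the seed matures, and *AT3G15310* (3.08), for which no role is given here, came next. Their proteins store nitrogen (cruciferins and other cupins), coat oil bodies (oleosins) or protect the drying embryo (late embryogenesis abundant, LEA, proteins), and they normally decline after germination. *PER1*, which encodes a seed peroxiredoxin, had 7.41, 8.06 and 8.49 in *pab2 pab8* and 4.66, 4.37 and 4.54 in WT, a change of 3.46 (SE 0.23, FDR = 0.000262), or 11-fold. *CRA1* (cruciferin A) had 8.01, 8.77 and 9.33 in *pab2 pab8*, against 5.55, 4.97 and 5.25 in WT, a change of 3.45 (SE 0.29, FDR = 0.000977). *CRU3* (cruciferin C) had 7.62, 7.97 and 8.91 in *pab2 pab8*, against 5.24, 4.71 and 4.70 in WT, a change of 3.29 (SE 0.29, FDR = 0.00100). In all 3 genes replicate 1 of the mutant was the lowest and replicate 3 the highest mutant array. *OLEO2*, an oleosin gene, had 6.47, 7.38 and 7.52 in *pab2 pab8* and 4.02, 4.06 and 4.32 in WT, a change of 2.99 (SE 0.24, FDR = 0.000788). These 4 genes were kept in all 9 fits, with their highest FDR without replicate 2 (0.0332 to 0.0429).

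Further seed mRNAs rose from signals near the low end of the array. *AT2G28490*, a cupin gene, averaged 6.49 ± 0.62 in *pab2 pab8* and 3.36 ± 0.32 in WT (SD, n = 3 each), a change of 3.12 (FDR = 0.00100). The LEA gene *AT3G17520* had 6.14, 6.6 and 6.86 in *pab2 pab8*, against 4.16, 3.92 and 4.21 in WT, a change of 2.43 (FDR = 0.000290). *M17*, an LEA-type gene, averaged 5.09 ± 0.61 in *pab2 pab8* and 3.09 ± 0.23 in WT, a change of 1.99 (FDR = 0.00583), and *LEA7* averaged 6.70 ± 0.67 in *pab2 pab8* and 4.72 ± 0.09 in WT, a change of 1.98 (FDR = 0.00674). In every case the groups did not overlap. *CYS2*, a cystatin gene, changed by 2.59 (FDR = 0.00116), *AT1G04560*, which encodes an AWPM-19-like membrane protein, by 2.09 (FDR = 0.00116), the oleosin gene *AT2G25890* by 1.61 (FDR = 0.00645), the cupin gene *AT4G36700* by 1.42 (FDR = 0.00393) and *LEA18* by 1.18 (FDR = 0.00364). *AT3G17520*, *LEA7*, *CYS2* and *LEA18* were kept in all 9 fits. The others missed the FDR without replicate 2 alone, with 0.0519 for *AT2G28490*, 0.0519 for *AT1G04560*, 0.107 for *M17*, 0.0928 for *AT2G25890* and 0.0523 for *AT4G36700*.

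Of 5 annotated seed storage globulins and albumins, 2 rose and 0 fell (median 0.56, against -0.03 over all probe sets), and of 4 annotated oil body proteins 1 rose and 0 fell (median 0.17). The rise therefore took in single members of these families. The only annotated regulator of seed maturation that was measured changed by 0.08 and did not pass the FDR. In the list of cold, drought and abscisic acid genes 0 of 5 annotated members rose and 1 fell (median 0.195), and 2 of the 3 named through the study's tables rose. *LTI65*, a desiccation-responsive gene, had 6.78, 7.18 and 7.01 in *pab2 pab8*, against 5.32, 5.47 and 5.37 in WT, a change of 1.6 (SE 0.11, FDR = 0.000315) that was kept in all 9 fits. *HB-12*, a homeodomain transcription factor gene induced by abscisic acid, changed by 1.13 (FDR = 0.0126, below 0.05 in 5 of 9 fits and 0.103 without replicate 2).

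Several genes for vacuolar processing enzymes and seed proteases rose along with those for the seed's reserves. Of 10 annotated vacuolar processing enzymes and seed proteases, 6 rose, 5 of them by 2-fold or more, and 0 fell, with a median of 0.89. *AT3G54940*, a papain-type cysteine protease gene, had 5.94, 6.55 and 6.80 in *pab2 pab8* and 3.87, 4.16 and 3.68 in WT, a change of 2.53 (SE 0.21, FDR = 0.000944). *BETA-VPE*, which encodes the vacuolar processing enzyme that matures storage proteins, had 7.43, 8.01 and 7.74 in *pab2 pab8*, against 6.41, 6.35 and 6.07 in WT, a change of 1.45 (SE 0.15, FDR = 0.00223). *DELTA-VPE*, a vacuolar processing enzyme gene of the seed coat, averaged 5.60 ± 0.44 in *pab2 pab8* and 4.17 ± 0.23 in WT (SD, n = 3 each), a change of 1.43 (FDR = 0.00873). The cysteine protease gene *CP1* changed by 1.21 (FDR = 0.00171), the serine carboxypeptidase-like gene *scpl44* by 1.05 (FDR = 0.00478) and the aspartic protease gene *AT4G04460* by 0.71 (FDR = 0.0183). *AT3G54940*, *BETA-VPE*, *CP1* and *scpl44* were kept in all 9 fits, *DELTA-VPE* missed the FDR without replicate 2 (0.107), and *AT4G04460* passed in 5 of 9 with its highest FDR without replicate 1 (0.148).

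The glyoxylate cycle turns the fatty acids of stored oil into sugar precursors, and both of its specific enzymes were higher. *ICL* (isocitrate lyase) had 5.83, 6.32 and 6.5 in *pab2 pab8*, against 4.85, 5.08 and 4.87 in WT, a change of 1.29 (SE 0.16, FDR = 0.00519). *MLS* (malate synthase), named through the study's tables, had 5.48, 6.14 and 6.36 in *pab2 pab8*, against 4.49, 4.75 and 4.41 in WT, a change of 1.44 (SE 0.20, FDR = 0.00810). *TIP3;1*, an aquaporin gene of the protein storage vacuole, changed by 1.7 (SE 0.25, FDR = 0.00891), and *BGLU19*, a beta-glucosidase gene, had 7.69, 7.81 and 8.36 in *pab2 pab8* and 5.46, 5.68 and 5.56 in WT, a change of 2.39 (SE 0.16, FDR = 0.000271). *BGLU19* was kept in all 9 fits. The other 3 missed the FDR without replicate 2, at 0.0748 for *ICL*, 0.0958 for *MLS* and 0.0805 for *TIP3;1*, and *MLS* and *TIP3;1* also missed it without the mutant array of replicate 2. Of 2 annotated genes in the list of the glyoxylate cycle and fatty acid beta-oxidation, *ICL* rose and 0 fell. The other, a beta-oxidation gene, changed by -0.24 and did not pass (FDR = 0.142), with an unadjusted p under 0.05 in limma.

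**Figure D3:**
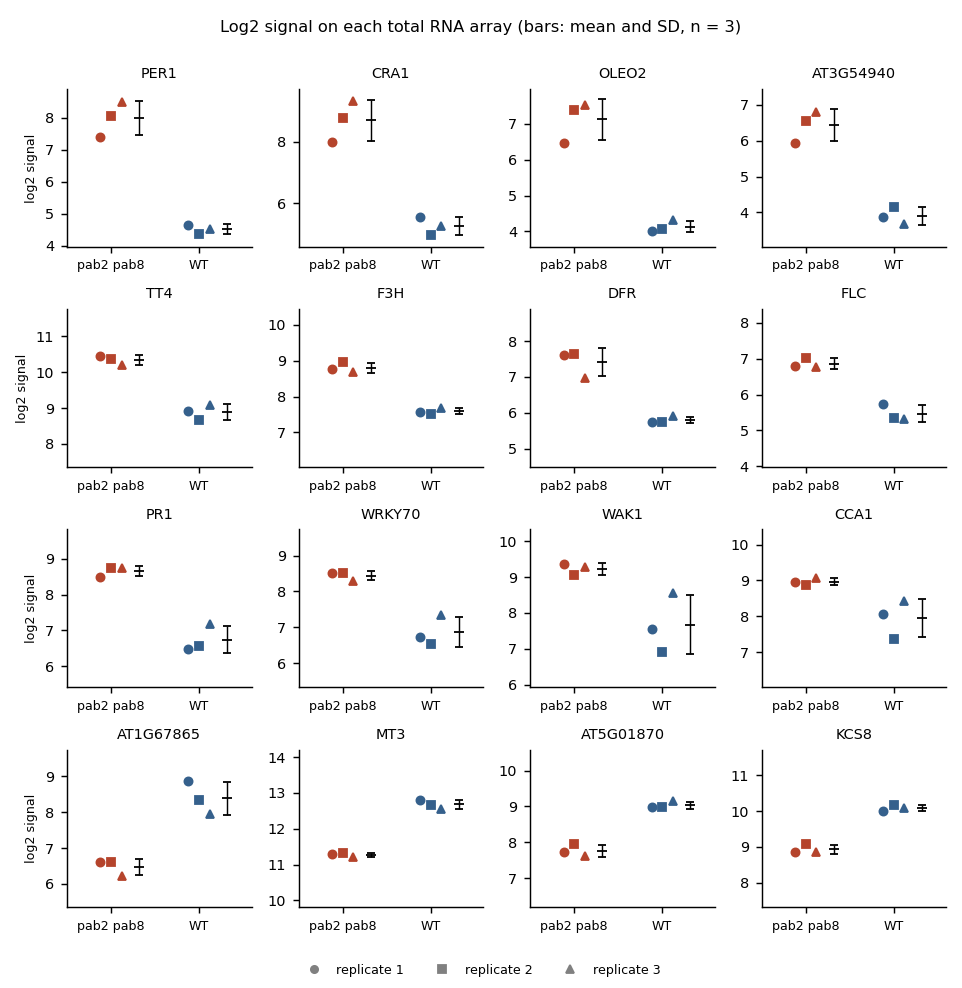
Log2 signals of 16 genes are shown for each total RNA array, *pab2 pab8* on the left and WT on the right of each panel, with the replicate given by the shape of the point and bars for the mean and SD (n = 3). Every vertical axis is cut to the range of its gene. The 4 seed genes of the top row were higher in the mutant and lowest there in replicate 1, whereas *WAK1* and *CCA1* varied more among WT arrays than among mutant arrays.

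The flavonoid pathway rose as a group. It makes flavonols and anthocyanins from phenylpropanoids, beginning with chalcone synthase. Of 6 annotated enzymes and transport proteins all 6 rose, 4 of them by 2-fold or more (median 1.33, against -0.03 over all probe sets), and 4 of 5 that only the study names rose too. *TT4* (chalcone synthase) had 10.46, 10.38 and 10.20 in *pab2 pab8* and 8.93, 8.66 and 9.10 in WT, a change of 1.45 (SE 0.13, FDR = 0.00100), or 2.74-fold. The chalcone isomerase-like gene *CHIL* had 9.18, 9.28 and 8.95 in *pab2 pab8*, against 7.84, 7.77 and 7.49 in WT, a change of 1.44 (FDR = 0.00100). *F3H* (flavanone 3-hydroxylase) changed by 1.2 (SE 0.10, FDR = 0.000991) and *FLS1* (flavonol synthase) by 1.4 (SE 0.12, FDR = 0.00100), each with no overlap between mutant and WT arrays. These steps precede both branches of the pathway or lead to flavonols. All 4 were kept in all 9 fits.

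Steps that lead to anthocyanins were raised as far but varied more among the mutant arrays. *DFR* (dihydroflavonol reductase) had 7.62, 7.65 and 6.97 in *pab2 pab8*, against 5.73, 5.75 and 5.90 in WT, a change of 1.62 (SE 0.17, FDR = 0.00227). *GSTF12*, which carries anthocyanins to the vacuole, had 7.09, 7.01 and 6.08 in *pab2 pab8*, against 5.51, 5.24 and 4.87 in WT, a change of 1.52 (SE 0.26, FDR = 0.0163). The glycosyltransferase genes *UF3GT* and *AT4G14090* changed by 1.46 (FDR = 0.00117) and 1.21 (FDR = 0.0140). For each of these 4 genes replicate 3 of the mutant gave the lowest mutant value. The flavonol glycosyltransferase genes *UGT78D1* and *UGT78D2* changed by 0.58 (FDR = 0.0250) and 0.51 (FDR = 0.0243), and *HYH*, a bZIP factor gene of light signalling that acts on this pathway, by 0.97 (FDR = 0.0346). *UF3GT* was kept in all 9 fits and *DFR* in all but that without replicate 2 (0.0605). *GSTF12* and *AT4G14090* passed in 5 of 9 (highest FDR 0.158 without replicate 2 and 0.135 without replicate 1), *UGT78D1* and *UGT78D2* in 2 (0.161 without replicate 2 and 0.183 without replicate 1), and *HYH* in 3 (0.137 without the mutant array of replicate 2).

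Genes of the salicylic acid defence response were higher, with WT arrays that differed among themselves. This hormone acts against biotrophic pathogens, and *PR1* is its standard marker. *PR1* had 8.49, 8.75 and 8.75 in *pab2 pab8* and 6.49, 6.57 and 7.17 in WT, a change of 1.92 (SE 0.17, FDR = 0.00106), or 3.79-fold. *WRKY70*, a transcription factor gene that salicylic acid induces, had 8.52, 8.51 and 8.29 in *pab2 pab8*, against 6.72, 6.54 and 7.33 in WT, a change of 1.58 (SE 0.18, FDR = 0.00370). *WAK1*, a wall-associated kinase gene, had 9.36, 9.05 and 9.28 in *pab2 pab8* and 7.56, 6.90 and 8.56 in WT, a change of 1.56 (SE 0.33, FDR = 0.0381). WT replicate 3 was the highest WT array in each, and the groups did not overlap. *LURP1*, which is induced on infection by an oomycete, changed by 1.56 (SE 0.31, FDR = 0.0306), *PCC1* by 1.36 (SE 0.27, FDR = 0.0299), *WRKY54* by 1.15 (SE 0.24, FDR = 0.0348) and *CRK4*, a cysteine-rich receptor-like kinase gene, by 1.00 (SE 0.19, FDR = 0.0242). *PR1* was kept in all 9 fits and *WRKY70* in 7 (0.0682 without replicate 2). The other 5 passed in 2 or 3 of 9, with highest FDRs of 0.207 for *WAK1*, 0.188 for *LURP1*, 0.176 for *PCC1* and 0.148 for *WRKY54* without replicate 1 and of 0.152 for *CRK4* without replicate 2. All 7 are named through the study's tables, while of the 3 annotated members of the list 0 passed the FDR in limma (median 0.16, 1 at an unadjusted p under 0.05).

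Signals for transcripts of the plastid genome were mostly higher in the total RNA of *pab2 pab8*, and replicate 1 decided how much. The paper cautions that its arrays favour polyadenylated mRNAs, and that polyadenylation precedes degradation in organelles. These signals need not follow the full level of a plastid transcript, which was not tested. The plastid carries genes for part of its ribosome, its RNA polymerase, the photosystems and the NDH complex. Of 15 annotated plastid-encoded ribosomal protein genes 3 rose and 0 fell, and all 15 lay above 0 (median 1.08). The mean log2 signal over all 17 measured was 9.97, 8.71 and 9.09 in *pab2 pab8* replicates 1 to 3 and 7.31, 7.74 and 8.82 in WT. In the list of 33 photosystem, cytochrome, ATP synthase and *rbcL* probe sets it was 11.17, 9.59 and 10.45 in *pab2 pab8* and 9.07, 10.26 and 10.47 in WT. The difference between the genotypes in the photosystem list was thus 2.1, -0.67 and -0.02 in replicates 1 to 3, against 2.65, 0.97 and 0.27 in the ribosomal protein list. In this list none of the 33 passed the FDR (limma), 1 had an unadjusted p under 0.05 and the median was 0.46, and in the NDH list none of 10 passed, 1 had such a p and the median was 0.39. Of 11 probe sets for the plastid RNA polymerase, *clpP*, *matK*, *accD*, *ycf* genes and others 0 passed, with 4 at an unadjusted p under 0.05 and a median of 0.78. In PL and NP RNA the medians of the 17 ribosomal protein genes were -0.04 and -0.07.

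**Figure D4:**
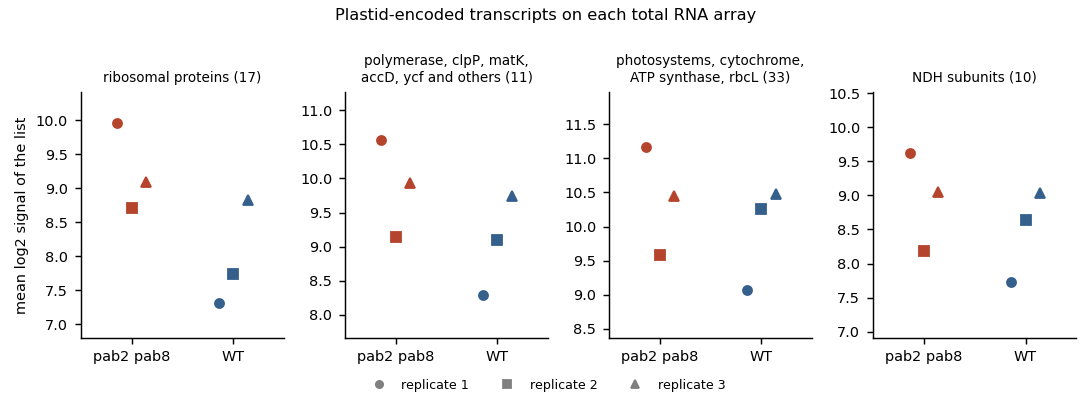
The mean log2 signal of 4 lists of plastid-encoded genes is plotted for each total RNA array, *pab2 pab8* left of WT in each panel, with shapes for replicates and the number of probe sets in brackets. Replicate 1 gave the highest mutant and the lowest WT value in all 4 lists, and replicate 2 of the mutant lay well above its WT partner in the ribosomal protein list only.

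Within the ribosomal proteins of the plastid, genes of 1 stretch of the plastid genome led. *rpl22* had 10.60, 9.54 and 9.79 in *pab2 pab8* and 7.09, 6.93 and 8.53 in WT, a change of 2.46 (SE 0.40, FDR = 0.0143). *rps3*, its neighbour, had 10.89, 10.18 and 10.17 in *pab2 pab8*, against 8.08, 7.67 and 9.22 in WT, a change of 2.09 (SE 0.35, FDR = 0.0161). *rpl16*, next to *rps3*, had 11.25, 10.56 and 10.78 in *pab2 pab8*, against 8.89, 9.22 and 10.14 in WT, a change of 1.44 (SE 0.29, FDR = 0.0323). WT replicate 3 was the highest WT array for each, and the groups did not overlap. In the same cluster *rpl14*, *rps19* and *rpl36* had changes of 2.07, 1.85 and 1.58 that did not pass the FDR (0.0719, 0.0578 and 0.108). Of these *rpl36* passed with the replicate block (0.0459). The 9 genes encoded elsewhere had smaller changes, 1.3 for *rps16*, 1.08 for *rps2*, 0.91 for *rps15*, 0.87 for *rpl20*, 0.78 for *rps18*, 0.77 for *rpl33*, 0.60 for *rps14*, 0.57 for *rpl32* and 0.57 for *rps4*, and none passed the FDR with or without the block. Without replicate 1 the changes of *rps18*, *rpl33*, *rps14* and *rps4* were -0.14, -0.09, -0.17 and -0.13. Without replicate 1 *rpl22*, *rps3* and *rpl16* did not pass (0.120, 0.141 and 0.174), and they passed in 5, 4 and 2 of 9 fits. The polymerase gene *rpoA*, which follows the cluster, changed by 0.78 (FDR = 0.0795).

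Few genes of the clock were measured by name, and those at its core moved in opposite directions. *CCA1* and *LHY* encode the morning repressors, and *GI* an evening component. *CCA1* had 8.96, 8.86 and 9.08 in *pab2 pab8* and 8.06, 7.37 and 8.43 in WT, a change of 1.02 (SE 0.22, FDR = 0.0414). *LHY* had 10.63, 10.54 and 10.86 in *pab2 pab8*, against 9.82, 9.54 and 10.11 in WT, a change of 0.85 (SE 0.15, FDR = 0.0185). *GI* had 7.67, 7.28 and 7.62 in *pab2 pab8* and 8.08, 8.60 and 8.35 in WT, a change of -0.82 (SE 0.15, FDR = 0.0232). Each was below an FDR of 0.05 in 3 of 9 fits, with the highest FDR without replicate 1 for *CCA1* (0.181) and *LHY* (0.134) and without replicate 2 for *GI* (0.123). Hours of harvest were not given for this mutant in the sources used here, and *CCA1* and *LHY* changed in the other direction in PL and NP RNA (values below).

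*FLC*, the MADS-box gene that represses flowering, was 2.63-fold higher, with 6.79, 7.03 and 6.76 in *pab2 pab8* and 5.73, 5.35 and 5.33 in WT, a change of 1.39 (SE 0.13, FDR = 0.00116) that was kept in all 9 fits. *FY*, whose product acts in mRNA 3′ end processing and lowers *FLC*, had 6.72, 6.68 and 6.72 in *pab2 pab8*, against 7.10, 7.32 and 7.12 in WT, a change of -0.48 (SE 0.09, FDR = 0.0285, below 0.05 in 2 of 9 fits and 0.151 without replicate 2).

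Single histone and cell cycle genes passed the FDR, each of them upwards. Of 13 annotated core and linker histone genes 4 rose and 0 fell, 11 lay above 0, and the median was 0.39. *AT3G53650*, an H2B gene, had 5.43, 5.47 and 4.68 in *pab2 pab8* and 3.80, 4.12 and 4.04 in WT, a change of 1.21 (SE 0.20, FDR = 0.0140). *AT2G28720* and *HTB2*, also H2B genes, changed by 0.96 (FDR = 0.0478) and 0.66 (FDR = 0.0397), and the H1 gene *AT1G06760* by 0.51 (FDR = 0.0285). The mutant array of replicate 3 was the lowest mutant array in all 4. Of 5 annotated cell cycle genes 1 rose, *TOPII* (topoisomerase II, 0.67, FDR = 0.0339), and 0 fell, with a median of 0.23. *HIK*, a kinesin gene of cytokinesis, had 6.32, 6.38 and 6.09 in *pab2 pab8* and 5.50, 5.06 and 5.02 in WT, a change of 1.07 (SE 0.14, FDR = 0.00624), and *CYCB1;1*, a mitotic cyclin gene, changed by 0.51 (FDR = 0.0409). *HIK* missed the FDR only without replicate 2 (0.103). *AT3G53650* passed in 5 of 9 fits (0.135 without replicate 1), *AT2G28720* in 3, *HTB2* and *TOPII* in 2, *AT1G06760* in 1 and *CYCB1;1* in 0 (highest FDRs 0.188 to 0.265). With the replicate number as a block, *AT2G28720* and *CYCB1;1* were no longer below 0.05 (0.0759 and 0.0654).

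The translation machinery of the cytosol differed little. Of 216 cytosolic ribosomal protein probe sets, as the study lists them, 0 passed the FDR in limma and 32 had an unadjusted p under 0.05. Their changes ran between -0.40 and 0.48, with a median of 0.07 that was 0.01 after each array was centred. Of 12 annotated initiation factor genes 2 rose and 0 fell, around a median of -0.01. The 2 are single genes for factors that act in scanning for the start codon. The other annotated members ran from -0.33 (*AT4G27130*) to 0.50 (*AT2G04520*) and did not pass. *AT5G54940*, a SUI1/eIF1 gene, had 10.71, 11.17 and 10.69 in *pab2 pab8* and 10.20, 9.59 and 9.72 in WT, a change of 1.02 (SE 0.18, FDR = 0.0189). *AT5G35680*, an eIF1A gene, had 9.38, 9.82 and 9.41 in *pab2 pab8*, against 9.08, 8.75 and 8.94 in WT, a change of 0.61 (FDR = 0.0451, or 0.0723 with the replicate number as a block). *AT5G54940* passed in 4 of 9 fits (0.130 without replicate 2) and *AT5G35680* in 0 (0.181). Of 13 annotated mRNA decay and deadenylation genes 0 passed, with 4 at an unadjusted p under 0.05 and a median of -0.05, and of 3 elongation and termination factors 0 passed, with 1 at an unadjusted p under 0.05.

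Few nuclear genes for organellar ribosomes passed the test, each of them downwards. Of 50 for mitochondrial ribosomes 3 fell and 0 rose (median -0.12), and of 49 for plastid ribosomes 2 fell and 0 rose (median -0.02). Over all probe sets 1.45% were lower and 2.44% higher at the FDR, with a median of -0.03. In the brightest of the 5 signal bins 136 of 4549 were lower. Counts this small do not set either list apart from these shares. *RPS10* had 7.71, 7.79 and 7.75 in *pab2 pab8* and 8.20, 8.16 and 8.22 in WT, a change of -0.44 (SE 0.08, FDR = 0.0242). *AT5G64650* and *RPL3P*, also of the mitochondrial list, changed by -0.47 (FDR = 0.0220) and -0.46 (FDR = 0.0417), and *AT5G13720* and *AT3G13120* of the plastid list by -0.43 (FDR = 0.0307) and -0.40 (FDR = 0.0476). None of these 5 passed in more than 1 of 9 fits, with highest FDRs of 0.149 to 0.269, and *AT3G13120* was at 0.0791 with the replicate number as a block.

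After the disrupted genes the largest decrease of a named gene was that of *AT1G67865*, a gene of unknown role, with 6.62, 6.6 and 6.22 in *pab2 pab8* and 8.88, 8.34 and 7.95 in WT, a change of -1.91 (SE 0.21, FDR = 0.00306), or 3.76-fold. *MT3*, a metallothionein gene and one of the brightest on the array, had 11.30, 11.32 and 11.21 in *pab2 pab8* and 12.81, 12.67 and 12.56 in WT, a change of -1.4 (SE 0.10, FDR = 0.000271), or 2.64-fold. *MT1C*, the other metallothionein measured by name, changed by -0.24 and did not pass (FDR = 0.311). *MT3* was kept in all 9 fits and *AT1G67865* missed the FDR only without replicate 2 (0.0682). *LEA3*, of another family of LEA-type genes, had 7.55, 7.96 and 8.56 in *pab2 pab8* and 9.52, 8.84 and 9.80 in WT, a change of -1.37 (SE 0.28, FDR = 0.0339). Its decrease ran against the increases of *LEA7* and *LEA18*. *ChlAKR*, an aldo-keto reductase gene of the chloroplast, changed by -1.31 (SE 0.20, FDR = 0.0106). *LEA3* passed in 3 of 9 fits and *ChlAKR* in 6, with highest FDRs of 0.192 and 0.102 without replicate 1.

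Of 11 annotated genes for lipid transfer proteins, small secreted proteins that bind lipids, 4 fell, 2 of them by 2-fold or more, and 1 rose (median -0.25). *AT5G01870* had 7.73, 7.95 and 7.62 in *pab2 pab8* and 8.97, 8.98 and 9.15 in WT, a change of -1.27 (SE 0.11, FDR = 0.00100). *AT4G22490* had 8.88, 9.0 and 9.08 in *pab2 pab8*, against 10.14, 10.09 and 10.45 in WT, a change of -1.24 (SE 0.12, FDR = 0.00116). *AT2G18370* and *AT1G62510* changed by -0.68 (FDR = 0.0253) and -0.48 (FDR = 0.0426). *AT4G22470*, which lies close to *AT4G22490* by locus number, went the other way, with 6.12, 6.24 and 6.55 in *pab2 pab8* and 5.04, 5.34 and 5.41 in WT, a change of 1.04 (SE 0.14, FDR = 0.00599). *AT5G01870* and *AT4G22490* were kept in all 9 fits, *AT4G22470* in all but that without replicate 2 (0.0786), *AT2G18370* in 2 (highest FDR 0.130) and *AT1G62510* in 1 (0.245).

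Of 8 annotated chitinase genes 2 fell, both of them by more than 2-fold, and 0 rose (median -0.29). The 2 chitinase genes that lie between them by locus number had changes of 0.02 and -0.35 that did not pass. *AT2G43590* had 6.69, 7.09 and 6.93 in *pab2 pab8* and 8.46, 8.23 and 7.85 in WT, and *AT2G43620* had 5.79, 5.57 and 6.16 in *pab2 pab8* and 6.86, 7.31 and 7.18 in WT. Both changed by -1.27 (FDR = 0.00529 and 0.00575) and missed the FDR only without replicate 2 (0.0719 and 0.0748). *AT3G16670*, whose product resembles the pollen allergen Ole e 1, changed by -1.29 (FDR = 0.00810, or 0.107 without replicate 2). *AT5G14920*, a GASA peptide gene, had 10.69, 10.69 and 10.53 in *pab2 pab8* and 11.49, 11.87 and 11.66 in WT, a change of -1.04 (SE 0.11, FDR = 0.00287) that was kept in all 9 fits. *AT4G23680*, a major latex protein gene, changed by -1.04 (FDR = 0.0126, passing in 4 of 9 fits with 0.0635 without replicate 3). The wall-loosening expansin gene *EXPA16* changed by -0.72 (FDR = 0.04999, or 0.0774 with the replicate number as a block) and the expansin gene *EXPA2* by 1.02 (FDR = 0.0195, or 0.165 without replicate 2), so that family had 1 member in each direction.

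*KCS8*, a ketoacyl-CoA synthase gene of very long chain fatty acid synthesis, had 8.86, 9.07 and 8.86 in *pab2 pab8* and 10.01, 10.17 and 10.09 in WT, a change of -1.16 (SE 0.10, FDR = 0.000991) that was kept in all 9 fits. *AT4G30650*, of the RCI2 family of small membrane proteins, was the 1 lowered member of the cold, drought and abscisic acid list, in which 6 of 8 named members lay above 0. It had 9.46, 9.44 and 8.90 in *pab2 pab8* and 10.45, 10.56 and 10.41 in WT, a change of -1.2 (SE 0.15, FDR = 0.00486, or 0.0669 without replicate 2). *COR27*, which cold and the clock regulate, had 6.54, 6.88 and 6.80 in *pab2 pab8* and 7.61, 7.62 and 7.74 in WT, a change of -0.92 (SE 0.11, FDR = 0.00415) that was kept in all 9 fits. *ESP*, the epithiospecifier gene of glucosinolate breakdown, changed by -0.72 (FDR = 0.0320, or 0.200 without replicate 2). The glucosinolate list leaned the other way, with 4 of 6 named members above 0 and a median of 0.33. In this list 0 rose at the FDR, and 1 did with the replicate number as a block. *AT1G20390* and *AT1G73120* changed by -1.15 (FDR = 0.00329) and -1.21 (FDR = 0.00989). The first was kept in all 9 fits and the second was at 0.0825 without replicate 1.

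Single changes under 2-fold could be as well resolved as larger ones where the replicates were tight, but few were kept in all 9 fits. Of the 885 probe sets past the FDR, 53 were kept in all 9 fits, and 42 of these were among the 122 calls. Only the rest of the 53 came from the 763 that changed by less than 2-fold. The genes of this paragraph were chosen after their values were seen. *LEA4-5*, a LEA gene of vegetative tissue, had 5.53, 5.62 and 5.65 in *pab2 pab8* and 4.67, 4.66 and 4.72 in WT, a change of 0.91 (SE 0.08, FDR = 0.00116), or 1.88-fold. *AT1G06000*, a flavonol rhamnosyltransferase gene, had 8.51, 8.55 and 8.46 in *pab2 pab8*, against 7.64, 7.58 and 7.66 in WT, a change of 0.88 (SE 0.08, FDR = 0.00117). Both were kept in all 9 fits, and *AT1G06000* adds a flavonoid gene outside the list. *AT5G48490*, a lipid transfer protein gene, changed by 0.96 (FDR = 0.00364) and the chaperone gene *Hsp70-2* by 0.72 (FDR = 0.00575). On the lowered side *TBL26*, of a family of wall polymer acetylases, had 6.67, 6.54 and 6.51 in *pab2 pab8* and 7.37, 7.43 and 7.4 in WT, a change of -0.83 (SE 0.09, FDR = 0.00223). *YLMG1-2*, a gene for a chloroplast membrane protein, changed by -0.86 (FDR = 0.00472), the DnaJ-type chaperone gene *AT1G56300* by -0.82 (FDR = 0.00472), the major latex protein gene *AT1G23130* by -0.91 (FDR = 0.00716) and *FDH* (mitochondrial formate dehydrogenase) by -0.74 (FDR = 0.00945). *AT3G14100*, which encodes an RNA-binding protein of the UBP1 type, had 9.58, 9.61 and 9.51 in *pab2 pab8* and 10.24, 10.34 and 10.15 in WT, a change of -0.68 (SE 0.09, FDR = 0.00643). The tubulin genes *TUB1* and *TUA6* changed by -0.97 (FDR = 0.0323) and -0.54 (FDR = 0.0200), and the LIM protein gene *WLIM2a* by -0.76 (FDR = 0.00583). Apart from the first 2, these genes missed the FDR in 1 to 7 of the 9 fits, with a highest value of 0.146 (*TUA6* without replicate 1).

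*AT3G15310* had 7.72, 7.54 and 7.48 in *pab2 pab8* and 4.48, 4.13 and 4.88 in WT, a change of 3.08 (SE 0.17, FDR = 0.000136). It was kept in all 9 fits, and no role is given for it here. *AT5G10120*, of the EIN3-like factors of ethylene signalling, averaged 4.69 ± 0.42 in *pab2 pab8* and 3.11 ± 0.13 in WT (SD, n = 3 each), a change of 1.58 (FDR = 0.00370), while the 2 other annotated ethylene genes did not pass. *LHCB4.3*, a minor antenna protein gene, had 9.20, 9.13 and 8.96 in *pab2 pab8*, against 8.06, 7.78 and 8.19 in WT, a change of 1.08 (SE 0.12, FDR = 0.00329), the only one of 8 annotated nuclear light harvesting and photosystem genes to pass (median 0.01). *ELIP2*, an early light-inducible gene, changed by 1.14 (FDR = 0.00891), the purple acid phosphatase gene *PAP8* by 1.26 (FDR = 0.00186), the nitrate transporter gene *NRT1.8* by 1.21 (FDR = 0.00445) and *CCT2*, of phosphatidylcholine synthesis, by 0.63 (FDR = 0.0312, or 0.0534 with the replicate number as a block). Of 4 named light stress genes only *ELIP2* lay above 0 (median -0.26), and 0 fell at the FDR. The other named gene of the phosphate starvation list, which holds *PAP8*, changed by -0.50 (FDR = 0.0732) and passed downwards with the block. Without replicate 2 the FDR was 0.0805 for *AT5G10120*, 0.0518 for *LHCB4.3*, 0.122 for *ELIP2*, 0.0580 for *PAP8* and 0.0805 for *NRT1.8*, and *CCT2* was at 0.178 without replicate 1. Annotated genes of the auxin, cytokinin, gibberellin and jasmonate pathways (4, 2, 3 and 4 measured), of heat shock (5), the Calvin cycle (3), iron and copper (2) and sulfur (2) had 0 past the FDR in limma, with 1, 1, 0, 0, 0, 1, 0 and 1 at an unadjusted p under 0.05.

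PL and NP RNA gave another view of the same contrast, 4 replicates of each genotype, of which replicate 4 came from plants with no total RNA array. In limma PL had 24 probe sets higher (0.106%) and 23 lower (0.101%) at the FDR, and NP 11 higher (0.0484%) and 6 lower (0.0264%), fewer than in total RNA. Of the 99 called higher in total RNA, 79 were above 0 in both PL and NP, compared with 6008 of all 22746 probe sets. In replicate 4 alone 72 of the 99 (72.7%) were above 0 in both, with median changes of 0.55 in PL and 0.47 in NP, compared with 29.9% of all probe sets. Of the 23 called lower, 14 were below 0 in both PL and NP (7939 of all 22746) and 5 above 0 in both. In replicate 4 alone 13 of the 23 (56.5%) were below 0 in both (medians -0.50 and -0.49), compared with 34.7% of all. Another 8 (34.8%) were above 0 in both there, compared with 29.9% of all. Of the 555 higher at the FDR alone, calls included, 53.9% were above 0 in both and 22.7% below 0 in both. Of the 330 lower 38.5% were below 0 in both and 37.9% above 0 in both. These shares describe 1 array pair per fraction and have no test.

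**Figure D5:**
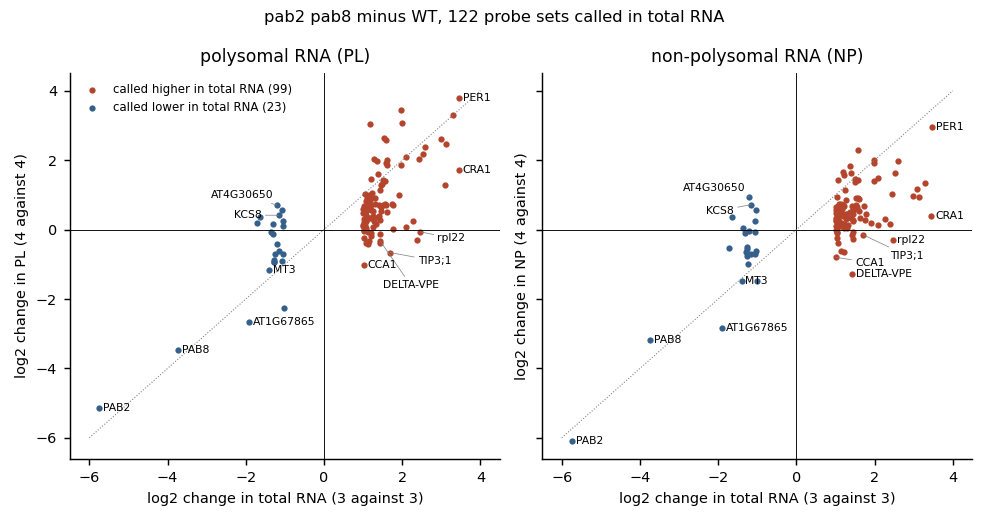
The 122 probe sets called in total RNA are placed by their log2 change there (*pab2 pab8* minus WT, horizontal axis, n = 3 each) and in PL (left) or NP (right) RNA (vertical axis, n = 4 each), with a dotted line where both are equal. *PAB2*, *PAB8*, *AT1G67865* and *MT3* lie near the line, most raised genes lie below it but above 0, and *DELTA-VPE*, *CCA1*, *TIP3;1*, *AT4G30650* and *KCS8* have the opposite sign in the fractions.

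The size of the change in the fractions varied from gene to gene. Among the seed genes *PER1* changed by 3.79 in PL and 2.95 in NP, against 3.46 in total RNA, and by 2.58 and 1.92 in replicate 4 alone. *CRA1* changed by 1.71 in PL and 0.40 in NP, *CRU3* by 3.29 and 1.35 and *OLEO2* by 2.62 and 0.98, so these 3 were lower in change in NP than in PL. Over the 5 annotated seed storage genes the medians were 0.42 in PL and 0.01 in NP. *AT3G54940* changed by 2.19 in PL and 1.62 in NP (2.53 in total RNA), *FLC* by 1.6 and 1.62 (1.39), *AT1G67865* by -2.66 and -2.82 (-1.91) and *MT3* by -1.16 and -1.47 (-1.4). The flavonoid enzymes *TT4* and *F3H* were above 0 in the fractions too, with 0.53 in PL and 0.25 in NP for *TT4* and 0.70 and 0.72 for *F3H*, and the 6 annotated members had medians of 0.36 and 0.29, against 1.33 in total RNA. *BGLU19*, 2.39 higher in total RNA, changed by -0.29 in PL and 0.16 in NP, and *rpl22* by -0.06 and -0.30.

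Whether the genotype difference itself differed between total RNA and the fractions was tested on the total signal minus the mean of PL and NP, replicate by replicate. In limma without a term for the replicate, 1 probe set was past the FDR upwards (0.0044%) and 0 downwards (0%). With the replicate number as a block 112 were higher (0.492%) and 50 lower (0.22%), and 42 of the 122 called in total RNA were among them. The 1 that passed both ways was *AT1G66100*, a thionin gene. It had 9.91, 9.84 and 9.69 in *pab2 pab8* total RNA and 9.50, 9.79 and 9.74 in WT, a change of 0.14 that did not pass (FDR = 0.501), but it changed by -2.40 in PL and -2.87 in NP, and by -3.79 and -3.66 in replicate 4. The difference was 2.41, with an FDR of 0.0260 without the block and 0.000506 with it. The opposite case was *AT3G55820*, at -0.16 in total RNA, 2.33 in PL and 1.3 in NP, a difference of -2.0 (FDR = 0.0511 without the block and 0.00166 with it). Clock-related genes changed sign between the kinds of RNA. *CCA1* was 1.02 higher in total RNA but changed by -1.01 in PL and -0.80 in NP (difference 1.62, FDR = 0.0133 with the block), *LHY* by -0.90 and -0.62 (1.39, FDR = 0.00584), and *COR27*, 0.92 lower in total RNA, by 0.55 and 1.22 (-1.63, FDR = 0.00584). *GI* kept its sign, with -0.59 in PL and -0.73 in NP. *KCS8*, *AT4G30650* and *AT5G14920* were lower in total RNA and above 0 in both fractions, with differences of -1.74, -1.66 and -1.26, and *DELTA-VPE*, *TIP3;1* and *NRT1.8* were higher in total RNA and below 0 in both, with 2.08, 2.01 and 1.51, each past the FDR with the block only.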

How the data were processed

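The arrays are Affymetrix ATH1 arrays, hybridized with total RNA of *pab2 pab8* or WT shoots (3 each) or with gradient fractions. The deposited values are log2 signals, which the authors read from the scans with the affy package and normalized with RMA (sources here give no versions). Total RNA and fraction arrays lie at different levels, which is why only changes are set across them. A deposited table of PL and NP log2 values equals the series table (largest difference 0) and was not used further. Control probe sets of the array maker were absent from the values used, and no filter was applied.

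The contrast of 3 against 3 arrays was fitted over 22746 probe sets with lmFit and eBayes (limma 3.58.1, R 4.3.3), without a term for the replicate and with Benjamini-Hochberg adjustment. A call took an FDR below 0.05 together with a log2 change of 1 or more in either direction. PL and NP were fitted the same way, 4 against 4. Lists are described by counts and medians, with no test. Summaries used Python 3.11.15 with numpy 2.4.6, pandas 2.3.3 and, for plots, matplotlib 3.10.9. On simulated data for 3 arrays against 3, limma recovered 78% of 100 probe sets changed by 0.6 and 100% of 100 changed by 1.2 on the log2 scale. There were 11 false calls among the unchanged rest of the 22746 probe sets. The simulated noise was independent between probe sets and arrays, with no replicate effects. These rates therefore do not cover the dependence on single replicates seen here. The number of arrays limits the precision.

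Per the labels, mutant and WT were grown together and each replicate at another time, which pairs samples of equal number. Across probe sets, deviations from the genotype means had r = -0.16, -0.06 and 0.21 in the 3 pairs of equal number and -0.27 to 0.33 in the 6 of unequal number, so the pairing rests on the labels and not on these values. Names came from the annotation table (13513 probe sets with 1 gene, 13436 of them matched to RefSeq of TAIR10.1) and the study's tables (500), while 548 have several genes and 8185 are unnamed here, among them 321 of the 885 that passed the FDR. Loci and neighbours are from RefSeq.

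The rule for named genes took the 15 largest called changes per direction with 1 gene and the same sign in every equal-numbered pair, the up to 4 smallest p per list, all measured plastid-encoded ribosomal protein and poly(A) binding protein genes, and the 5 smallest p per direction in the test of total RNA against the fractions. The other list members, *LEA18* and the genes of the paragraph on changes under 2-fold were chosen after their values were seen. Of all these only a part is printed, and 2 members of the plastid list are not reported here. Members and lists were chosen with earlier results of these data known. Alternatives were the replicate block, median centring, a repeated quantile normalization, an intensity trend or robust eBayes, only the brighter probe sets, a 1.5-fold criterion, all 22 arrays in 1 fit, PL or NP alone as the fraction, and the fit without each replicate or array.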

Additional observations from a re-analysis of the deposited data

Results flagged for a closer look

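The labels match total RNA and gradient fractions by replicate number, and do not say whether both came from the same plants. For 17 probe sets the genotype change differed between total RNA and the gradient fractions of equal replicate number, by a test on total RNA minus the mean of PL and NP (limma, 3 against 3). *AT1G66100* passed it without a term for the replicate (difference 2.41). The other 16 passed the FDR in total RNA, had the opposite sign in both fractions, and passed the test of the difference with the replicate number as a block only. Those higher in total RNA were *rpl22* (2.71), *DELTA-VPE* (2.08), *TIP3;1* (2.01), an unnamed probe set (1.84), *rpl16* (1.64), *CCA1* (1.62), *AT5G48490* (1.61), *NRT1.8* (1.51), *LHY* (1.39) and *AT3G51720* (1.33). Those lower were *KCS8* (-1.74), a probe set of several genes (-1.71), *AT4G30650* (-1.66), *COR27* (-1.63), *AT5G14920* (-1.26) and *WLIM2a* (-1.15).

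In replicate 4, from plants without a total RNA array, the fraction changes kept the sign opposite to total RNA in both PL and NP for *AT5G48490* (-1.29 and -1.38), *CCA1* (-1.92 and -1.69), *LHY* (-1.64 and -1.19), *NRT1.8* (-0.77 and -0.70), *DELTA-VPE* (-0.62 and -1.86), *TIP3;1* (-1.01 and -0.36), the unnamed probe set (-2.61 and -2.06), *AT4G30650* (1.59 and 2.26), *COR27* (0.97 and 1.83), *AT5G14920* (0.72 and 1.2), *KCS8* (0.23 and 0.85), *WLIM2a* (1.03 and 0.68) and *rpl16* (-0.15 and -0.30). The exceptions were *rpl22* (0.08 and -0.03), *AT3G51720* (0.18 and 0.66) and the probe set of several genes (-0.05 and 0.36). The PL and NP changes over all 4 replicates include replicate 4. Its signs are therefore not independent of the opposite sign by which these probe sets were picked. Total RNA and fraction arrays differed in extraction as well as in level, and the part of this in the differences was not tested.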

How the results depend on the processing

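The replicate block left 106 called higher and 24 lower (568 and 295 at the FDR alone). It took 6 of the 129 probe sets named in the text above the FDR and brought 1 below it, as given beside them, and changed no other call among them. In the test of total RNA against the fractions the block gave 112 higher and 50 lower, PL alone 2 lower, and NP alone 5 higher and 3 lower, compared with 1 and 0 without it.

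Calls numbered 58 higher among the brighter probe sets only, 65 higher and 15 lower with all 22 arrays in 1 fit, and 380 higher and 125 lower at 1.5-fold. At the FDR alone, lower probe sets numbered 613 after median centring and 533 among the brighter ones, and all 22 arrays in 1 fit gave 119 higher and 30 lower. Of the 129, 60 did not pass in that fit, 1 after quantile normalization (*AT3G12920*), 1 with an intensity trend (*CYCB1;1*) and 3 with robust eBayes (*rps3*, *rpl22* and *WAK1*), while none changed sides after centring.

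Without single replicates or arrays, calls ranged over 33 to 149 higher and 15 to 25 lower, the FDR alone over 48 to 495 higher and 20 to 181 lower, and total RNA against the fractions over 0 to 119 higher and 0 to 36 lower. The lowest counts of calls and at the FDR came without replicate 2, and the highest of the last test without replicate 1. No sign changed in these fits for the 129 except for *rps18* (-0.14 to 1.41), *rpl33* (-0.0875 to 1.26), *rps14* (-0.17 to 1.25) and *rps4* (-0.13 to 0.95), below 0 without replicate 1 and, for *rps14*, also without the mutant array of replicate 1. In each case the cause was not tested. With 3 arrays per genotype, a change near 0.6 can be missed, and RMA signals at the low end compress differences.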
